A study of Mus musculus with 7 samples.

Results

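The genes described here are 8 of the 32285 genes counted: Havcr2 (encoding TIM-3), Lag3, Tigit, Ctla4, Cd160, Entpd1 (CD39), Lgals9 (galectin-9) and Tox. They were taken by symbol from the gene list of the files and stand for the inhibitory receptors of lymphocytes other than PD-1, with a ligand (Lgals9), an ectoenzyme (Entpd1) and a transcription factor (Tox) that belong to the same programme. Single-cell RNA sequencing in droplets measured them in 7 libraries of whole brain tumours that grew from the NSCG-mCherry glioma line, which carries EGFRvIII and lacks Arf and Ink4a, in wild-type C57BL/6 mice of 7 to 10 weeks. The study addressed, among other questions, how the tumour and its immune cells change under immunotherapy.

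Of the 5 groups, UT mice had no treatment (1 library) and IgG mice received 10 mg/kg of the isotype antibody IgG2b (2 libraries). BP mice received B20, which blocks VEGF, at 5 mg/kg together with anti-PD-L1 at 10 mg/kg (2 libraries). BPI mice had both antibodies and daily gavage of 10 mg/kg IPI-145, which inhibits the delta and gamma forms of PI3K (1 library). CD40 mice received an agonist antibody to CD40, 100 µg for 2 doses, 5 days apart (1 library). The labels leave unsaid whether the CD40 mice also had a dendritic cell vaccine. Antibodies of the BP, BPI and IgG mice were injected every 3 days, and tumours were taken at about day 14, after 3 rounds. Each library pooled tumours of at least 2 mice. A library is therefore the replicate, and every p-value below measures the spread between libraries, which may be partly technical. The BPI, CD40 and UT groups have no replicate of their own, so the fit assumed that they vary as the IgG and BP replicates do.

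Inhibitory receptors restrain T and NK cells after activation. CTLA-4 competes with CD28 for CD80 and CD86, LAG-3 binds MHC class II, TIGIT competes with CD226 for the poliovirus receptor, CD160 binds the herpesvirus entry mediator, and TIM-3 binds galectin-9 among other ligands. CD39 degrades extracellular ATP on the way to adenosine, and TOX is a nuclear factor of developing and exhausted T cells. Chronically stimulated T cells in tumours often carry several of these receptors at once. TIM-3, CD39 and galectin-9 are also made by myeloid cells, and regulatory T cells constitutively express CTLA-4.

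After filtering, 48588 cells were kept, from libraries of 68997476 to 186793886 UMIs (unique molecular identifiers, each standing for 1 captured transcript). Clusters led by T cell markers held 2622 cells (T-like) and clusters led by NK markers 1113. Among these, 1086 cells carried UMIs of Cd8a or Cd8b1 (CD8 T), 510 of Cd4 (CD4 T) and 259 of Foxp3 (Foxp3 T), and 756 were NK cells. Monocyte/macrophage-like cells numbered 3599, microglia-like cells 2567 and tumour-like cells 29174, and 7642 cells stayed unnamed. Both IgG libraries were poor in T cells, with 12 and 13 CD8 T cells, 6 and 13 CD4 T cells and 2 and 1 Foxp3 T cells, against 492 and 115 CD8 T cells in BP. UT shared 0 to 3 cell barcodes with each other library, whereas the other pairs shared 10 to 26, and UT listed 713553 barcodes against 1487060 to 2310016, although the labels name the same barcoding chemistry for all. UT is the only library of its group, so whatever sets that library apart and the lack of treatment cannot be told apart in any UT value below. IgG 1, BP 2 and BPI have consecutive library numbers, as do CD40 and IgG 2, whereas BP 1 and UT stand alone in the numbering. Levels are UMIs of a gene per 1000000 UMIs of the summed cells (CPM), and their intervals cover counting error only. Tumour-like cells gave the background for 7 of the genes: 0.679% of them had a UMI of Havcr2, 1.97% of Lag3, 0.507% of Tigit, 10.5% of Ctla4, 1.40% of Entpd1, 0.319% of Tox and 0.860% of Cd160, at median depths of 10586 to 22629.5 UMIs per cell. They are no background for Lgals9, which was seen in 11.9% to 79.7% of them by library. Ctla4 in tumour-like cells ran from 2.38 CPM in BP 1, the library with most T-like cells, to 10.0 in BPI, and its source was not tested. The tumour-like cells of the libraries lay mostly in different clusters: those of IgG 1, BP 2 and BPI in 3 clusters, those of IgG 2 and CD40 in 4 others and those of BP 1 in 1. In UT, 948 of the 1082 lay in 1 cluster that held 133 cells of BP 1 and 0 to 9 of each other library, and 1500 UT cells of a cluster in which 7 of 10 tumour markers were raised stayed unnamed.

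In GRCm38, the mm10 build, the 8 protein-coding genes lie apart except for a pair on 1 chromosome: Havcr2 (chr11:46454935-46481255, + strand) and Lgals9 (chr11:78962974-78984946, - strand). Lag3 lies at chr6:124904361-124911705 (-), Tigit at chr16:43648867-43664146 (-), Ctla4 at chr1:60887000-60915832 (+), Entpd1 at chr19:40612366-40741602 (+), Tox at chr4:6686353-6991557 (-) and Cd160 at chr3:96798763-96829351 (-). Promoter windows, the 250 bases before a RefSeq gene start in GRCm38.p6, were matched for 6 of the 8 genes (8 windows). Of these, 3 are shown, because Havcr2 was measured in lymphoid and myeloid cells, whereas Ctla4 reached at most 25.6 and Tigit at most 0.528 CPM in the myeloid classes. They are Havcr2 (chr11:46454681-46454930, + strand), Ctla4 (chr1:60908775-60909024, + strand) and Tigit (chr16:43664185-43664434, - strand), each written 5′ to 3′, and the capitals mark matches to a PU.1 core (GAGGAAGT) or an AP-1 core (TGANTCA).
Havcr2: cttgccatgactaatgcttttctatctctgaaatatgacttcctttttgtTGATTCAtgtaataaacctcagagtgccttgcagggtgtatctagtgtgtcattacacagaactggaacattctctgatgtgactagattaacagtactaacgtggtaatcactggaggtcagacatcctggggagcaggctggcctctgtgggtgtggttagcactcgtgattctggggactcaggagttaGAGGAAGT
Ctla4: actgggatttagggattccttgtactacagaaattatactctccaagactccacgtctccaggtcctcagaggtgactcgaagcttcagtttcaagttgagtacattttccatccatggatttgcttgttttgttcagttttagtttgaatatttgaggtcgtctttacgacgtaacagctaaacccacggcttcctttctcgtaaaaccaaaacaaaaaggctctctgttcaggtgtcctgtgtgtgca
Tigit: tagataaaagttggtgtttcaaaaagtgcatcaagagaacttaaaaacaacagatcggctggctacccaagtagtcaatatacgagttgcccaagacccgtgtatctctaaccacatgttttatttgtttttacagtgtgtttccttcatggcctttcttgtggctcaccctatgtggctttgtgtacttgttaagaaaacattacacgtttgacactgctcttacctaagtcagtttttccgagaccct
Only the Havcr2 window of the 8 held either motif on either strand, with the PU.1 core 8 bases and the AP-1 core 200 bases before the start. Of all 32851 windows of this length, 2.44% held the PU.1 core and 6.75% the AP-1 core. The motifs were chosen after the windows had been read, and a match to letters is a description, not a binding site.

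Between treatment groups the clearest differences lay in the T-like cells. Havcr2 was not detected in the T-like cells of either IgG library and was present in BP, BPI and UT, while the few UMIs of CD40 gave a level below what the IgG depth could show. Lag3 was higher in BP and UT than in IgG, Entpd1 in BP and Ctla4 in UT. Tox stood out only in CD40 by level, and Tigit, Cd160 and Lgals9 were not called in any contrast of T-like cells.

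Havcr2, the TIM-3 gene, had 0 UMIs in the T-like cells of IgG 1 and IgG 2, 121 CPM in BP 1, 68.6 in BP 2, 81.4 in BPI, 5.34 in CD40 and 66.5 in UT. It was thus seen in 383, 34, 88 and 66 cells of BP 1, BP 2, BPI and UT, in 4 cells of CD40 and in none of the 40 and 57 T-like cells of IgG. A count of 0 among the 342190 UMIs of both IgG libraries allows up to 8.77 CPM. The measured levels were 13.8-fold and 7.82-fold that limit in the BP libraries, 9.28-fold in BPI and 7.59-fold in UT. These folds leave out the counting error of the levels themselves, which in BP 2 ran from 51.1 to 90.2 CPM. With edgeR's quasi-likelihood test and Benjamini-Hochberg adjustment over all genes, Havcr2 was called in BP (adjusted p = 1.46e-04), BPI (2.01e-04) and UT (7.43e-04). The Havcr2 call was lost in 4 of 15 alternatives in BP, 3 of 15 in BPI and 1 of 14 in UT. Within the consecutive libraries, 1 per group, the Havcr2 levels were 0 in IgG 1, 68.6 CPM in BP 2 and 81.4 in BPI. Free RNA, estimated from empty droplets, accounted for 0.218% to 0.889% of the Havcr2 UMIs of BP, BPI and UT T-like cells and 8.52% of those of CD40.

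**Figure D1:**
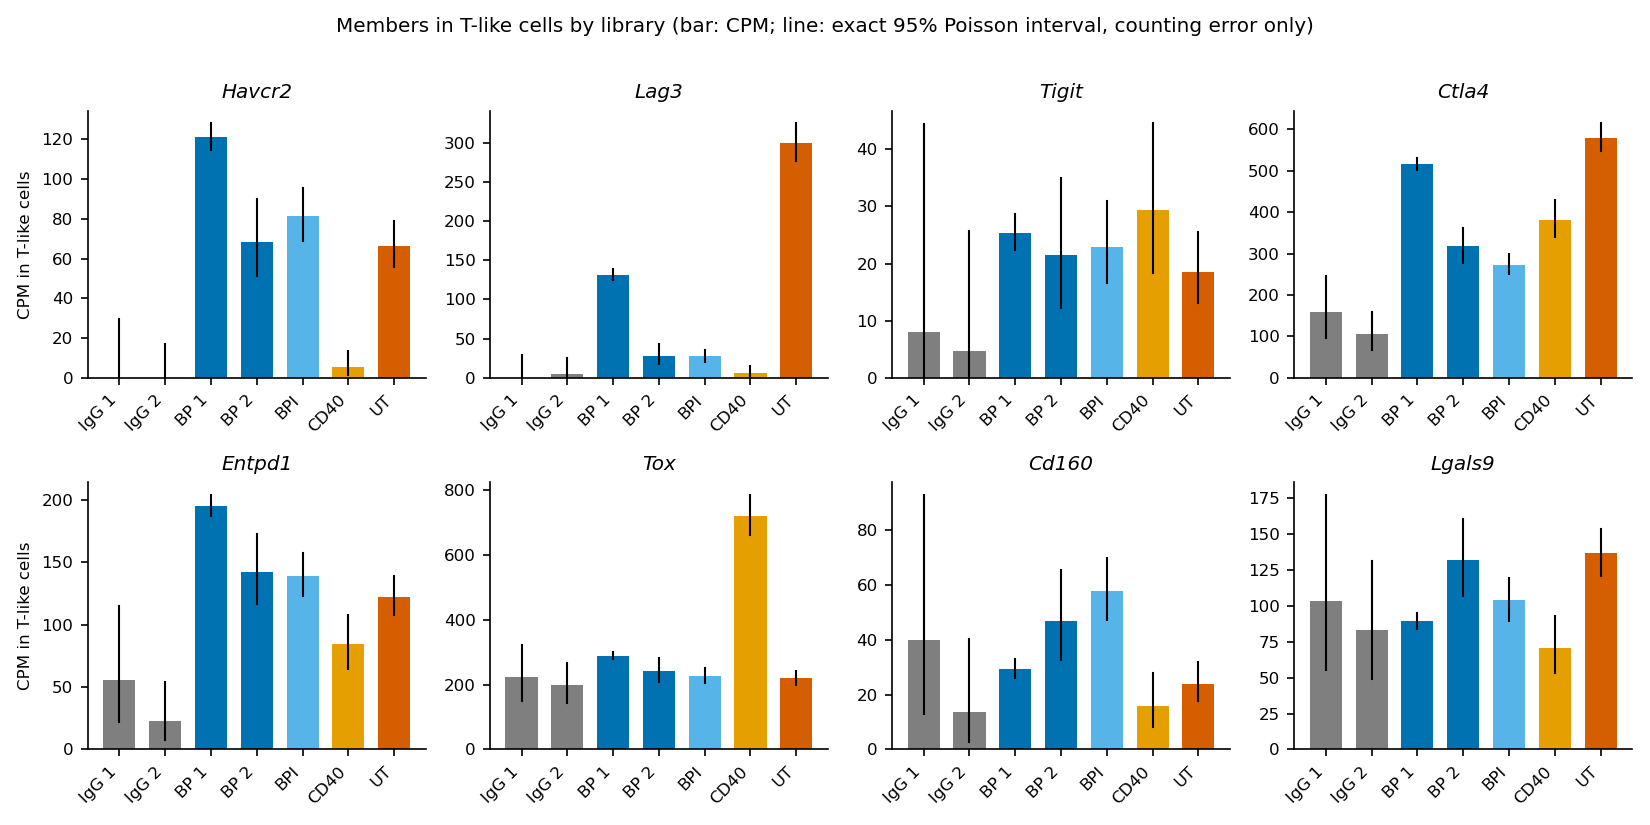
Level of each of the 8 genes (CPM, linear axes starting at 0) in the summed T-like cells of each library; lines are exact 95% Poisson intervals, which cover counting error only. Havcr2 was at 0 in both IgG libraries and at 66.5 to 121 CPM in BP, BPI and UT, while Tox reached 722 CPM in CD40.

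Lag3, whose product binds MHC class II, was at 0 and 4.62 CPM in IgG, 131 and 28.2 in BP, 27.3 in BPI, 6.68 in CD40 and 299.7 in UT. The single IgG UMI makes each ratio uncertain: the ratio to IgG was 44.9 in BP 1 (counting interval 8.05 to 1776), 9.66 in BP 2 (1.55 to 399.7) and 103 in UT (18.3 to 4057). Lag3 was called in BP (log2 difference 4.55 ± 0.97 (SE), edgeR adjusted p = 0.00848) and in UT (6.58 ± 0.89, 4.62e-07) and not in BPI (3.29 ± 1.16, 0.329). The Lag3 call in BP was lost in 7 of 15 alternatives and reversed in 1. The UT library was highest and BP 1 stood well above BP 2. UT was also the highest library for Lag3 in the tumour-like cells, at 3.23 CPM against 0.762 to 1.68 in the other 6, whose tumour-like cells lay mostly in other clusters. Entpd1, the CD39 gene, was at 55.8 and 23.1 CPM in IgG, 195 and 143 in BP, 139 in BPI, 84.2 in CD40 and 123 in UT. All 5 other libraries were above both IgG libraries. It was called in BP (2.03 ± 0.52, adjusted p = 0.0385), a call lost in 10 of 15 alternatives, among them without IgG 1, IgG 2 or BP 1 (edgeR adjusted p = 0.0559, 0.847 and 0.0535). Ctla4 was at 159 and 106 CPM in IgG and at 516 and 317 in BP, 273 in BPI, 382 in CD40 and 579.8 in UT, so that the IgG libraries were again the lowest 2. It was called in UT (2.09 ± 0.51, 0.0137), and in BP it was not (1.49 ± 0.45, 0.106).

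Tox was at 223 and 198 CPM in IgG, 289.7 and 243 in BP, 227 in BPI and 219.6 in UT, and at 722 in CD40. The CD40 library therefore stood alone, but the difference from IgG was not called (1.70 ± 0.49, edgeR adjusted p = 0.593). Tigit ranged from 4.62 to 7.96 CPM in IgG and from 18.5 to 29.4 in the other 5 libraries, Cd160 from 13.8 to 57.9 and Lgals9 from 70.8 to 137 over all 7. Against IgG, 3 of the 8 genes were called in BP, all higher, 1 in BPI, 0 in CD40 and 3 in UT. Over all genes tested 0.708% were called in BP, 0.49% in BPI, 0.0327% in CD40 and 1.95% in UT. For BPI against BP 0 of the 8 were called (0.109% of all genes). At an unadjusted p under 0.05 edgeR gave 4 of the 8 in BP, 4 in BPI and 4 in UT. It gave 3 in CD40 (Ctla4, Tigit and Tox) and 1 in BPI against BP (Lag3, -1.26 ± 0.56). The share of all genes at that level is not given here. DESeq2 called 0 of the 8 in BP, BPI, CD40 and BPI against BP and 3 in UT. Of all genes it called 5, 12, 0, 0 and 83 in these contrasts. The median log2 difference of the 8 genes was 1.64 in BP, 1.69 in BPI, 1.30 in CD40 and 1.62 in UT, and that of all genes 0.04, 0.03, 0.02 and 0.02; genes at 0 in IgG enter these medians with fitted values that are no bounds. These contrasts share the IgG libraries, so they are no independent evidence of one another.

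Few libraries carry the calls in BP and BPI. Without IgG 2, 0 of the 8 genes were called in BP and in BPI, but of all genes only 1 was called in each. Without BP 1, 1 of the 8 was called in BP, with 51 of all genes. Pooling UT with IgG as the control left 0 of the 8 in both, with 0 of all genes in BP and 3 in BPI, and Lag3 at a log2 difference of -0.80 in BP.

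Of the other genes of these pathways, 7 of 13 ligands, all 11 partner and competing receptors, 4 of 5 adenosine genes and all 12 regulators of exhaustion and effector function were tested in T-like cells, and none of 3 other TIM family genes passed the filter on low counts. Lgals3 (galectin-3, a LAG-3 ligand) was higher in BP (log2 2.07 ± 0.50), BPI (2.40 ± 0.55) and UT (2.13 ± 0.56). Pdcd1, the PD-1 gene itself, was higher in BP (2.74 ± 0.60), BPI (2.70 ± 0.66) and UT (4.45 ± 0.62), and so was Klrc1, the gene of the inhibitory receptor NKG2A, at 2.25 ± 0.59, 2.90 ± 0.63 and 3.12 ± 0.62. These 3 were the only genes of the 4 lists called in BP or BPI, and 0 were called in CD40. In UT Cd80 and H2-Ab1 were also called among the ligands, both at 0 in IgG, Id2 was higher (1.92 ± 0.51) and Tcf7, a factor of naive and memory T cells, was lower (-2.36 ± 0.59). The summed level of 10 genes that are high in macrophages was 231 CPM in the T-like cells of both IgG libraries, 367 and 242 in BP, 179 in BPI, 303 in CD40 and 467 in UT. Of the 10, 4 and 8 were seen in the IgG libraries (Csf1r and Ms4a7 were at 0 in both) and 9 or 10 in each other library. With cells holding 2 or more UMIs of the 10 genes left out, all members called in BP, BPI and UT kept an adjusted p under 0.05. With cells holding 2 or more UMIs of only 6 stricter macrophage genes left out, Havcr2 was still called in BP and BPI, and all 3 genes in UT, while Lag3 and Entpd1 were not called in BP. The share of CD8 T cells also differed: 12 CD8 T beside 40 T-like cells in IgG 1, 13 beside 57 in IgG 2, 492 beside 1294 in BP 1, 115 beside 228 in BP 2, 347 beside 595 in BPI, 53 beside 128 in CD40 and 54 beside 280 in UT. Its part in the T-like differences was not tested beyond the CD8 T values that follow.

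The T cells of different libraries lay in different sub-clusters, made without the 8 genes. A CD8 T sub-cluster of 420 cells held 105 cells of BP 2, 298 of BPI and 0 of BP 1 and UT, and another of 289 held 279 of BP 1, 1 of BP 2 and 3 of BPI. Most IgG T-like cells lay in 2 unnamed sub-clusters, with 8 and 26 cells of IgG 1 and 11 and 35 of IgG 2, which also held 26 and 55 cells of BP 2, 43 and 155 of BPI and 64 and 29 of CD40, but 5 and 2 of BP 1 and 0 of UT. The part of this difference in the values was not tested.

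Of the 1086 CD8 T cells 1079 are T-like cells, so their Havcr2 count of 0 in IgG, also in the calls below, is no separate observation. In CD8 T cells, Havcr2 was unseen in IgG. It was at 0 in 12 and 13 IgG cells, at 175 CPM in BP 1, 86.9 in BP 2, 105 in BPI, 5.53 in CD40 and 108 in UT. The IgG sums are so small that a count of 0 allows up to 29.4 CPM. The measured levels were 5.94-fold and 2.95-fold that limit in BP, 3.58-fold in BPI and 3.66-fold in UT, without their own counting error. The BP 2 level had a counting interval of 61.8 to 119 CPM, and the CD40 level was below the limit. Lag3 was at 0 and 17.6 CPM in IgG (1 UMI in all), 101 and 24.5 in BP, 33.5 in BPI, 2.77 in CD40 and 354 in UT. Ctla4 was at 44.2 and 0 CPM in IgG (2 UMIs in all), 226 and 192 in BP, 190 in BPI, 213 in CD40 and 321 in UT. The ratio of Ctla4 to IgG was 11.5 in BP 1 (counting interval 3.18 to 95.3), 9.77 in BP 2 (2.62 to 82.0), 9.70 in BPI (2.66 to 80.6), 10.9 in CD40 (2.91 to 91.3) and 16.4 in UT (4.45 to 136).

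Tox separated the CD40 library from the rest in CD8 T cells. It was at 111 and 52.8 CPM in IgG, 119.9 and 163 in BP, 159.8 in BPI and 120.0 in UT, and at 650.2 CPM in CD40, where 31 of 53 CD8 T cells held 235 Tox UMIs. The cell with most UMIs held 37 of them, and without it the level was 588 CPM. Entpd1 was at 66.3 and 0 CPM in IgG, 252 and 151.5 in BP, 164 in BPI, 63.6 in CD40 and 153 in UT. Cd160, a receptor of cytotoxic lymphocytes, was at 0 in both IgG libraries and at 19.4 to 76.4 CPM in the others, Tigit at 0 to 33.2 over all 7 and Lgals9 at 52.6 to 151.5.

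The IgG sums fall under the minimum of 20 cells, so treated CD8 T cells were set against IgG only with the minimum lowered to 10 cells. There edgeR called Havcr2 (adjusted p = 0.00982) and Ctla4 (3.40 ± 0.84, 0.0150) in BP, the same 2 genes in BPI (0.0234 and 0.0256), Tox in CD40 (3.15 ± 0.65, 0.00464), and Ctla4 (4.09 ± 0.88, 0.00119), Lag3 (5.24 ± 1.02, 1.33e-04) and Havcr2 (0.0262) in UT. The shares of all genes called were 0.579%, 0.621%, 0.0989% and 0.844%. For BPI against BP, which has enough cells, edgeR called 0 of the 8 (0.187% of all genes, and 0.141% with the lower minimum, again without a member) and gave 0 at an unadjusted p under 0.05; the differences ranged from -0.70 ± 0.52 for Lag3 to 0.81 ± 0.51 for Cd160. Of the related genes H2-Aa, an MHC class II gene, was the only one called in that contrast (-3.95 ± 0.82).

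Foxp3 T cells were too few in IgG for a test and are described by level. CD4 T cells were set against IgG with the minimum of 10 cells, which IgG 2 alone of the IgG libraries met. There edgeR called 0 of the 4 members tested in BP, BPI and CD40 (0% of all genes in each) and 0 of 6 in UT (0.41%). At an unadjusted p under 0.05 it gave Ctla4 and Tox in BP, Tox in BPI and in CD40, and Ctla4 and Lag3 in UT. For BPI against BP in CD4 T cells edgeR called 0 of the 4 members tested (0.055% of all genes), with 1 at an unadjusted p under 0.05 (Lag3, -3.41 ± 1.43), and 0 of 4 with the lower minimum (0%). The share of all genes at an unadjusted p under 0.05 is not given for these contrasts, so such counts say nothing particular about the members. In CD4 T cells Ctla4 was at 69.2 and 123 CPM in IgG (7 UMIs), 616 and 731 in BP, 352 in BPI, 344 in CD40 and 625 in UT. Lag3 was at 0 in both IgG libraries, at 237 and 52.2 in BP, 14.1 in BPI, 0 in CD40 and 334 in UT, so that BP 1 and UT held most of it. Havcr2 was at 0 in IgG, BPI and CD40 and at 90.6, 117.5 and 72.6 in BP 1, BP 2 and UT. These CD4 T sums are small, and a count of 0 allows up to 47.4 CPM in IgG, 42.3 in BPI and 30.4 in CD40. The measured Havcr2 levels were 1.91-fold, 2.48-fold and 1.53-fold the IgG limit in BP 1, BP 2 and UT, without their own counting error. The BP 2 level rests on 9 UMIs in 5 cells (counting interval 53.7 to 223 CPM). All CD4 T cells lie among the T-like cells, so their Havcr2 count of 0 in IgG is no separate observation. The same limits hold for the 0 values of Lag3 in IgG and CD40. Tox did not set CD40 apart in CD4 T cells, at 547 CPM in CD40, 549.6 in BPI, a mean of 397 in BP, 246 in UT and 81.9 in IgG 2. In Foxp3 T cells Ctla4 was high in every library, from 1297 to 2367 CPM, and 94.6% of the 259 cells had a UMI. Tox in Foxp3 T cells was at 678 CPM in BP 1 (191 cells), 363 in UT (32 cells) and, from at most 12 cells each, 2228 in CD40 (12 cells), 978 in BPI (12), 459 in BP 2 (9), 1112 in IgG 2 (1) and 171 in IgG 1 (2). In BP 1 and UT respectively, Foxp3 T cells held Havcr2 at 84.5 and 33.4 CPM, Lag3 at 79.5 and 234, Tigit at 42.6 and 33.4, and Entpd1 at 283 and 146.

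**Figure D2:**
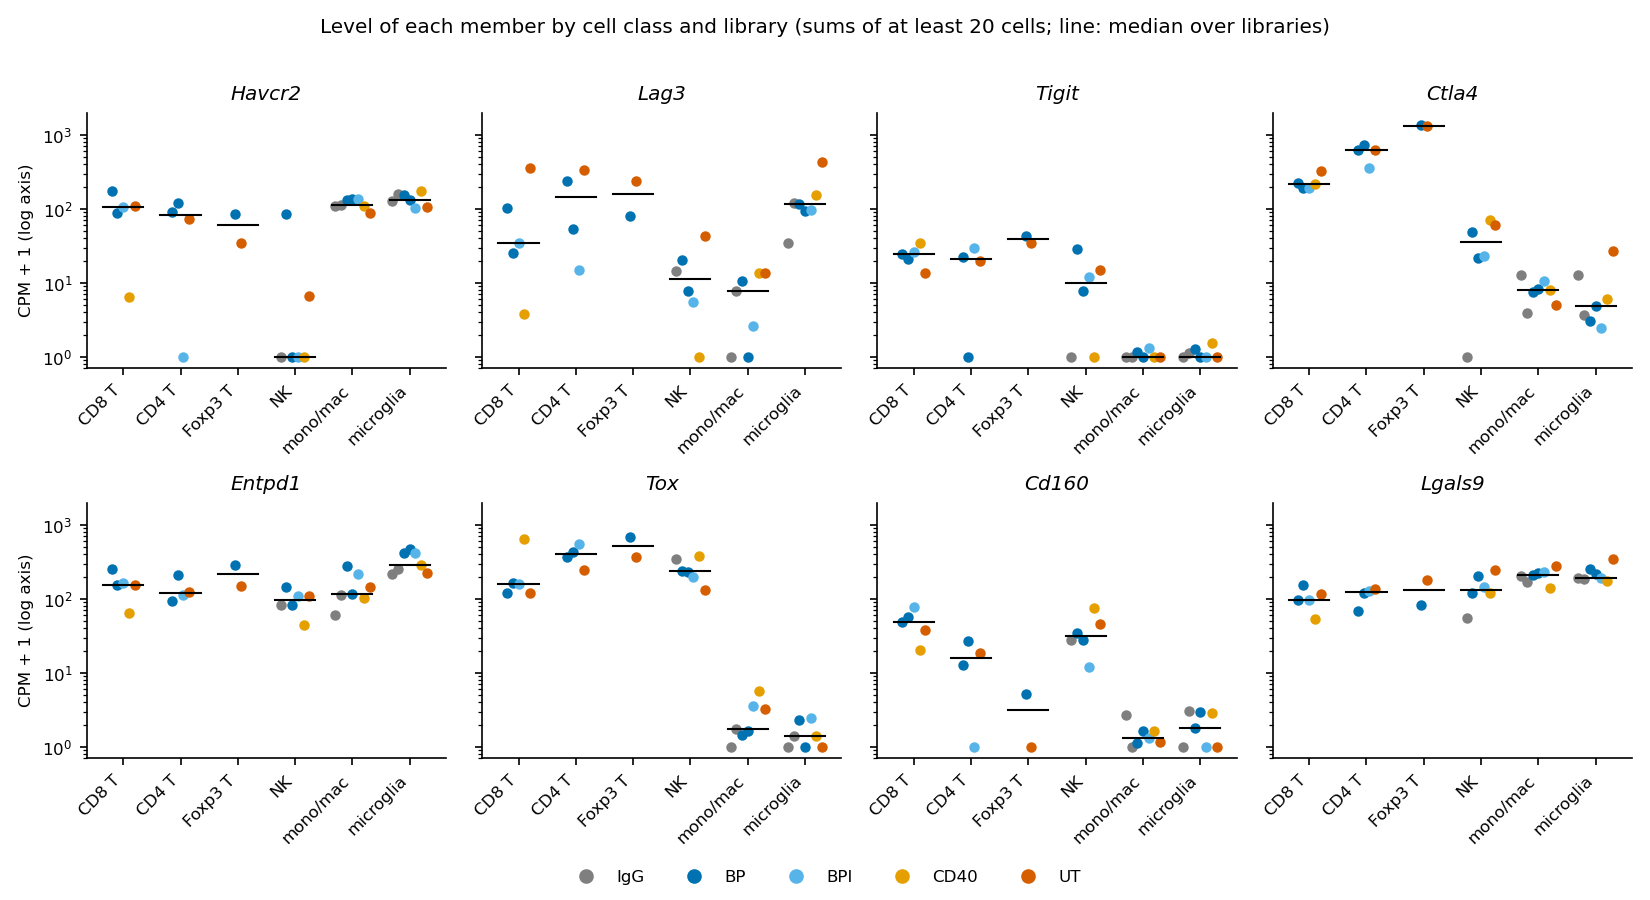
Level of each gene (CPM plus 1, log axis) in 6 cell classes; each point is the sum of 1 library with at least 20 cells of the class, coloured by group, and each line is the median over libraries. Ctla4 was highest in Foxp3 T cells, Lag3 was at 33.1 to 432 CPM in microglia-like and 0 to 12.7 in monocyte/macrophage-like cells, and Havcr2 was at 85.9 to 172 CPM in both myeloid classes.

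Compared within libraries, with the library as a block, the lymphocyte classes formed an order for Ctla4: Foxp3 T, CD4 T, CD8 T and NK cells, from high to low. Ctla4 was higher in Foxp3 T than in CD4 T cells (1.01 ± 0.22, edgeR adjusted p = 0.0072, 2 libraries), lower in CD8 T than in CD4 T cells (-1.21 ± 0.19, 7.88e-05, lower in 4 of 4 libraries) and lower in NK than in CD8 T cells (-2.54 ± 0.21, 1.26e-09, lower in 5 of 5). Tox was lower in CD8 T than in CD4 T cells (-1.18 ± 0.22, 8.80e-04, 4 of 4 libraries) and higher in Foxp3 T than in CD8 T cells (1.81 ± 0.27, 3.48e-05, 2 of 2). Foxp3 T and CD4 T cells did not separate for Tox (0.63 ± 0.27, 0.264), nor NK and CD8 T cells (0.11 ± 0.20, 0.767).

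Havcr2 and Cd160 were both lower in Foxp3 T than in CD8 T cells. Cd160 was higher in CD8 T than in CD4 T cells (1.90 ± 0.42, edgeR adjusted p = 0.00333, 4 of 4 libraries) and lower in Foxp3 T than in CD8 T cells (-3.80 ± 0.68, 3.59e-04), and was not called between NK and CD8 T cells. Havcr2 was lower in Foxp3 T than in CD8 T cells (-1.54 ± 0.50, 0.0466, 2 of 2 libraries), a call lost in 7 of 18 alternatives, among them DESeq2 and without BP 1, BP 2 or UT, and lower in NK than in CD8 T cells (-2.07 ± 0.41, 4.21e-04, 5 of 5), and CD8 T and CD4 T cells did not separate (0.99 ± 0.41, 0.156). Lag3 was lower in Foxp3 T than in CD4 T cells (-1.15 ± 0.27, 0.0106, 2 of 2) and lower in NK than in CD8 T cells (-2.83 ± 0.30, 7.94e-08, 5 of 5). Entpd1 was higher in CD8 T than in CD4 T cells (0.76 ± 0.23, 0.034, in 3 of 4 libraries) and lower in NK than in CD8 T cells (-0.77 ± 0.20, 0.00525). The first of these calls was lost in 9 of 18 alternatives, among them without BP 1 (0.33 ± 0.26) and without BPI (0.77 ± 0.25), and DESeq2 called neither it nor Cd160 between CD8 T and CD4 T cells. Lgals9 was the only member called higher in NK than in CD8 T cells (0.51 ± 0.16, edgeR adjusted p = 0.0201, 5 of 5). That call was lost in 5 of 18 alternatives, and the Lag3 call between Foxp3 T and CD4 T cells in 4 of 18. Tigit was called in none of these 4 contrasts.

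In numbers, 2 of the 8 genes were called for Foxp3 T against CD4 T (4.42% of all genes), 4 for CD8 T against CD4 T (9.15%), 4 for Foxp3 T against CD8 T (10.4%) and 5 for NK against CD8 T (24.6%). Without BP 1 the first 3 counts were 0, 2 and 2, and those of all genes also fell, from 349 to 47, from 722 to 125 and from 820 to 170.

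The related genes are given by list, with at most the 4 largest log2 differences of each. For Foxp3 T against CD4 T cells edgeR called 4 of 10 partner and competing receptors, namely Klrg1 (3.75 ± 0.46) and Icos (1.20 ± 0.28) higher and Klrc1 (-2.65 ± 0.65) and Pdcd1 (-1.58 ± 0.34) lower. Of 11 regulators 4 were called: Ikzf2 (Helios, of regulatory T cells, 3.25 ± 0.37) and Prdm1 (1.25 ± 0.26) were higher, and Tcf7 (-3.08 ± 0.62) and Id2 (-1.19 ± 0.33) lower. Lgals3 was the 1 ligand of 7 called (-1.67 ± 0.47), and 0 of 4 adenosine genes were. For CD8 T against CD4 T cells, Cd244a (3.76 ± 0.45) and Klrc1 (1.52 ± 0.40) were higher and Cd200r1 (-3.24 ± 0.33) and Icos (-0.91 ± 0.23) lower, as 4 of 10 receptors. Of the 4 adenosine genes 2 were called, in opposite directions: Ada, whose product (adenosine deaminase) degrades adenosine, was higher (1.83 ± 0.53), and Nt5e, the CD73 gene that acts after CD39 in adenosine production, was lower (-0.98 ± 0.24). Of the 11 regulators 1 was higher, Eomes (4.17 ± 0.55), and 4 were lower, among them Nr4a1 (-1.67 ± 0.29), Nr4a3 (-0.92 ± 0.20) and Nfatc1 (-0.90 ± 0.21). Cd86 was the 1 ligand called (1.52 ± 0.35).

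For Foxp3 T against CD8 T cells 3 receptors were higher and 5 lower, led by Klrc1 (-4.17 ± 0.60), Cd200r1 (3.22 ± 0.36), Klrg1 (2.95 ± 0.39) and Cd244a (-2.22 ± 0.44). Of the regulators 4 were higher and 3 lower, led by Eomes (-4.90 ± 0.74), Ikzf2 (4.13 ± 0.34), Tcf7 (-2.22 ± 0.62) and Nr4a1 (1.90 ± 0.35). Lgals3 was lower (-2.48 ± 0.47), and 0 of 4 adenosine genes were called. For NK against CD8 T cells 2 receptors were higher and 5 lower, led by Pdcd1 (-4.77 ± 0.38), Klrg1 (3.17 ± 0.31), Cd244a (2.50 ± 0.23) and Icos (-2.25 ± 0.26). The ligands Cd80 (-4.23 ± 0.56), Cd86 (-3.11 ± 0.40) and Hmgb1 (-0.54 ± 0.16) were lower. Ada (1.10 ± 0.35) and the adenosine receptor gene Adora2a (0.85 ± 0.22) were higher and the nucleoside transporter gene Slc29a1 was lower (-0.89 ± 0.29). Of the regulators 5 were higher and 1 lower, led by Eomes (2.06 ± 0.27), Tbx21 (1.40 ± 0.18), Batf (-0.93 ± 0.22) and Nr4a1 (0.85 ± 0.28).

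NK cells held little of most receptors. Ctla4 was at 0 to 69.4 CPM, Lag3 at 0 to 42.1, Tigit at 0 to 27.7 and Cd160 at 11.1 to 74.7 over the 7 libraries, whereas Entpd1 ranged from 42.7 to 145, Lgals9 from 54.3 to 244 and Tox from 106 to 374. Havcr2 was at 0 in 5 libraries, 85.3 CPM in BP 1 and 5.61 in UT, and 151 of its 153 UMIs came from 16 of the 301 NK cells of BP 1. Of these UMIs, 135 lay in 8 of the 9 NK cells with at least 25000 UMIs, all from BP 1, where the median NK cell had 4008. Those 9 cells held Havcr2 at 299 CPM. Against the other 292 NK cells of BP 1, Entpd1 (182 against 132 CPM) and Cd160 (59.8 against 24.3) were higher. Lag3 (8.86 against 22.7, 4 UMIs) and Tigit (2.22 against 36.4, 1 UMI) were lower. Pdcd1 was at 48.7 CPM against 1.52, from 22 UMIs in 2 of the 9 cells. Prf1 (perforin) was at 3425 CPM against 803 in the other 292 cells. The granzyme gene Gzmb was at 3008 against 2310, and Gzma was lower, at 2260 against 6208.5. The NK receptors Ncr1 (109 against 738) and Klrb1c (44.3 against 327) were lower. The gate asks every NK cell for a UMI of either receptor, and the part of the gate and of depth in these differences was not tested. The 6 macrophage genes summed to 57.6 CPM in the 9 cells, against 7536 in the macrophages of that library. Doublet scores of the 9 cells were 0.0984 to 0.145, against a median of 0.0492 in BP 1. The other 292 cells held 16 Havcr2 UMIs (12.1 CPM). The depth limit was chosen after the values were seen, and no test was made. For the NK contrasts that follow, the share of all genes at an unadjusted p under 0.05 is not given. Between BP and IgG 1, the only IgG library with enough NK cells, edgeR called 0 of the 6 genes tested in NK cells and 0 of all genes (0%), with 0 of the 6 at an unadjusted p under 0.05; for BPI against BP it called 0 of the 6 (0% of all genes, and 0.2% with the lower minimum, again without a member), with 1 at that level (Havcr2). With the minimum lowered to 10 cells, which admits IgG 2, edgeR called 0 of the 6 against IgG in BP (0.289% of all genes), BPI (0%), CD40 (0.0222%) and UT (0.473%), with 1 at an unadjusted p under 0.05 (Havcr2 in BP).

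In myeloid cells Havcr2 was seen in every library, IgG included. In microglia-like cells it was at 126 and 157 CPM in IgG, 153 and 131 in BP, 102 in BPI, 172 in CD40 and 104.5 in UT. In monocyte/macrophage-like cells it was at 107 and 111 in IgG, 131 and 135 in BP, 134 in BPI, 109 in CD40 and 85.9 in UT. In microglia-like cells both BP libraries lay within the IgG range, CD40 above it and BPI and UT below it. In monocyte/macrophage-like cells BP and BPI lay above both IgG libraries, UT below them and CD40 between them. Havcr2 was called in no contrast between groups in either class, the log2 differences from IgG lying between -0.34 ± 0.42 (BPI, microglia-like) and 0.82 ± 0.43 (BPI, monocyte/macrophage-like). The 2 classes did not separate within libraries (-0.01 ± 0.18, edgeR adjusted p = 0.968). IgG myeloid cells thus held Havcr2 in the same libraries whose T-like cells gave no UMI of it. Free RNA accounted for at most 1.57% of the Havcr2 UMIs of either class.

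Lag3 separated the myeloid classes. Microglia-like cells held it at 33.1 and 119 CPM in IgG, 114 and 92.7 in BP, 96.3 in BPI, 152 in CD40 and 432 in UT, and monocyte/macrophage-like cells at 0 to 12.7. The difference was -4.36 ± 0.34 (edgeR adjusted p = 6.75e-07, lower in 7 of 7 libraries). Entpd1 was also lower in monocyte/macrophage-like than in microglia-like cells (-1.003 ± 0.20, 0.00159, 7 of 7), and Lgals9 was at 173 to 347 CPM in microglia-like and 139 to 275 in monocyte/macrophage-like cells. Of the 5 genes tested in this contrast 2 were called (37.8% of all genes). Of 12 ligands 7 were higher in monocyte/macrophage-like cells and 1 lower, led by Lgals3 (3.90 ± 0.47), H2-Aa (3.27 ± 0.68), H2-Ab1 (2.93 ± 0.53) and Cd80 (2.16 ± 0.25), all higher. Of 6 receptors Btla was higher (2.35 ± 0.42), and Pdcd1 (-4.13 ± 0.39), Icos (-2.08 ± 0.46) and Vsir, the VISTA gene (-1.67 ± 0.23), were lower. Of the 5 adenosine genes Adora2b (4.33 ± 0.54), Nt5e (3.23 ± 0.53) and Adora2a (2.61 ± 0.45) were higher and Slc29a1 was lower (-0.56 ± 0.16). Of 8 regulators 4 were higher and 1 lower, led by Nr4a2 (2.39 ± 0.30), Prdm1 (1.58 ± 0.28), Ikzf2 (-1.26 ± 0.23) and Id2 (0.84 ± 0.24), and Timd4 of the TIM family was higher (2.56 ± 0.52).

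Between groups, edgeR called 0 of the 5 or 6 genes tested in either myeloid class (0% of all genes in 9 of the 10 contrasts and 0.0939% for UT against IgG in monocyte/macrophage-like cells). At an unadjusted p under 0.05 stood Entpd1 in BP in both classes and in BPI in monocyte/macrophage-like cells, and Lag3 and Lgals9 in UT in microglia-like cells; DESeq2 called 1, in the last contrast, and 0 in the other 9. Shares of all genes at an unadjusted p under 0.05 are not given here, so these counts say nothing particular about the members. The low shares of all genes called rest on the tool and on BP 2. DESeq2 called 108, 202, 4, 1 and 214 of all genes in monocyte/macrophage-like cells (BP, BPI and CD40 against IgG, BPI against BP, UT against IgG) and 46, 20, 0, 3 and 103 in microglia-like cells. Without BP 2, edgeR called 640, 716, 0, 237 and 887 of all genes and 1, 1, 0, 0 and 0 of the members in monocyte/macrophage-like cells, and 972, 206, 26, 431 and 813 of all genes and 0, 0, 0, 0 and 1 of the members in microglia-like cells. Microglia-like Lag3 in UT had a log2 difference from IgG of 2.72 ± 0.70 (adjusted p = 0.332). UT microglia-like cells lay mostly in a cluster shared with BP 1, in which Lag3 was at 480.1 CPM in UT and 115 in BP 1. That cluster held 263 of the 268 microglia-like cells of BP 1 and 122 of the 151 of UT. Its P2ry12, a microglia marker, was at 281 CPM, and 7 of 10 monocyte/macrophage markers were raised. In the cluster with most such cells of IgG, BP 2, BPI and CD40 these were 1121 CPM and 4 of 10. The part of this split in the microglia-like values was not tested. Entpd1 in microglia-like cells was at 213 and 255 CPM in IgG, 414 and 465 in BP, 422 in BPI, 282 in CD40 and 224 in UT, the BP and BPI libraries lying above the other 4. In monocyte/macrophage-like cells it was at 60.3 and 113 in IgG, 281 and 117 in BP, 214 in BPI, 100.4 in CD40 and 145 in UT. In BP 1 it was at 291 CPM in 1636 cells of a cluster that held few cells of other libraries, and at 138 CPM in the 162 cells of the cluster shared by all 7.

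Single CD8 T cells often held several receptors. Counting Havcr2, Lag3, Tigit, Ctla4, Entpd1 and Cd160, at least 2 of the 6 were seen in 8.33% and 0% of the CD8 T cells of IgG, 68.1% and 39.1% of BP, 39.8% of BPI, 35.8% of CD40 and 70.4% of UT. The median CD8 T cell had 2600.5 and 4119 UMIs in IgG, 7259 and 3385 in BP, 3034 in BPI, 5951 in CD40 and 7229 in UT, so depth differed as well, without the same order. With each cell thinned to 1000 UMIs they were 0% and 0%, 14.8% and 6.09%, 9.80%, 1.89% and 22.2%. UT and BP 1 were the highest 2 in both counts. Within BP 1, thinned cells with at least 2 receptors made up 14.8% of CD8 T, 16.4% of CD4 T, 20.4% of Foxp3 T and 0.664% of NK cells. In UT these shares were 22.2%, 31.8%, 18.8% and 0%, so NK cells were lowest in both and the T cell classes did not keep an order.

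**Figure D3:**
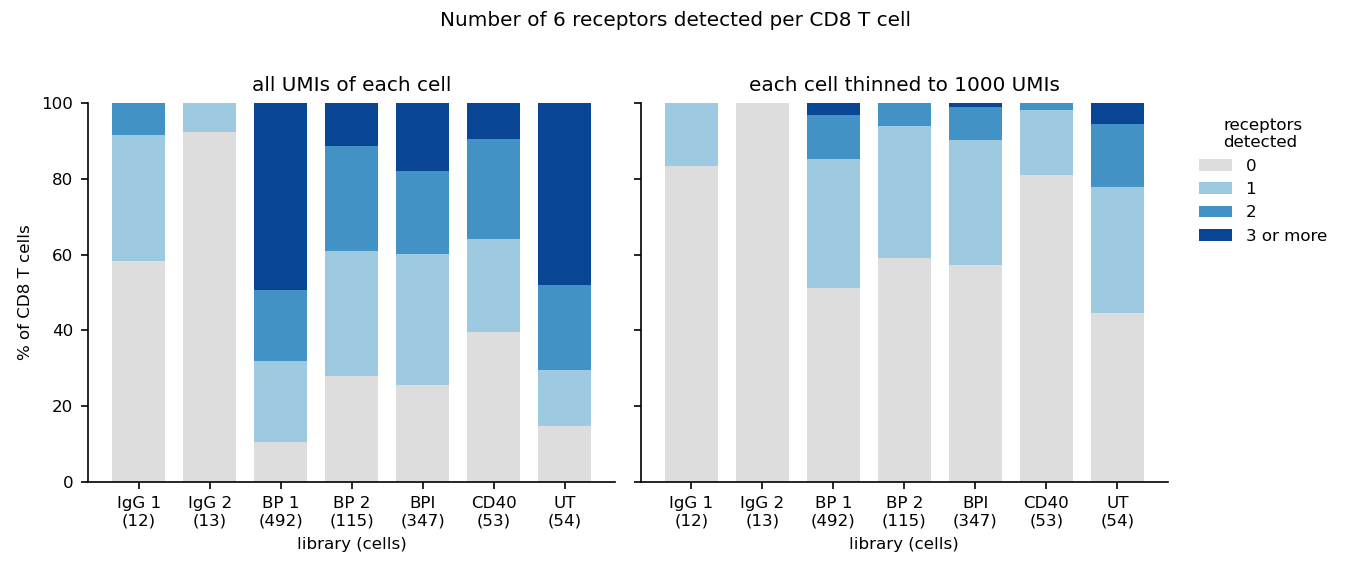
Share of CD8 T cells (% of the cells in brackets) with 0, 1, 2 or at least 3 of 6 receptors detected, with all UMIs (left) and with each cell thinned to 1000 UMIs (right). After thinning, cells with at least 2 receptors made up 22.2% in UT, 14.8% in BP 1 and 0% in both IgG libraries, which held 12 and 13 cells.

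Pairs of genes were set against the number of cells expected if both were independent within a library and a quartile of depth. In CD8 T cells, Havcr2 and Entpd1 met in 255 cells with 211 expected (ratio 1.21), Havcr2 and Lag3 in 163 with 139 expected (1.18), and Pdcd1 and Lag3 in 187 with 148 expected (1.26). After thinning to 2000 UMIs, with shallower cells left out (1000 of 1086 remained), these ratios were 1.36, 1.57 and 1.495. The ratio of Havcr2 and Entpd1 was above 1 in each of the 4 libraries with at least 10 expected cells, at 1.19 in BP 1, 1.11 in BP 2, 1.25 in BPI and 1.41 in UT. Havcr2 and Tox did not meet more often than expected, at 109 cells against 115 (0.946), and 0.757 after thinning. Havcr2 and Tigit met in 56 cells with 57.3 expected (0.977). In CD4 T cells Havcr2 and Entpd1 had a ratio of 1.33 (70 cells), and in Foxp3 T cells Havcr2 and Lag3 a ratio of 1.46 (36 cells, 24.7 expected). Microglia-like cells gave ratios near 1 for Havcr2 with Lag3 (1.01, 920 cells) and with Entpd1 (1.02, 1267 cells). Havcr2 was seen in 60.2% and Entpd1 in 75.7% of them, against 32.4% and 47.7% of CD8 T cells. The more cells hold a gene, the less a ratio can rise above 1, so these unthinned ratios are not comparable with those of T cells. These are descriptions over cells that share libraries, without a test, and at these depths most receptor transcripts of a cell go unseen.

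**Figure D4:**
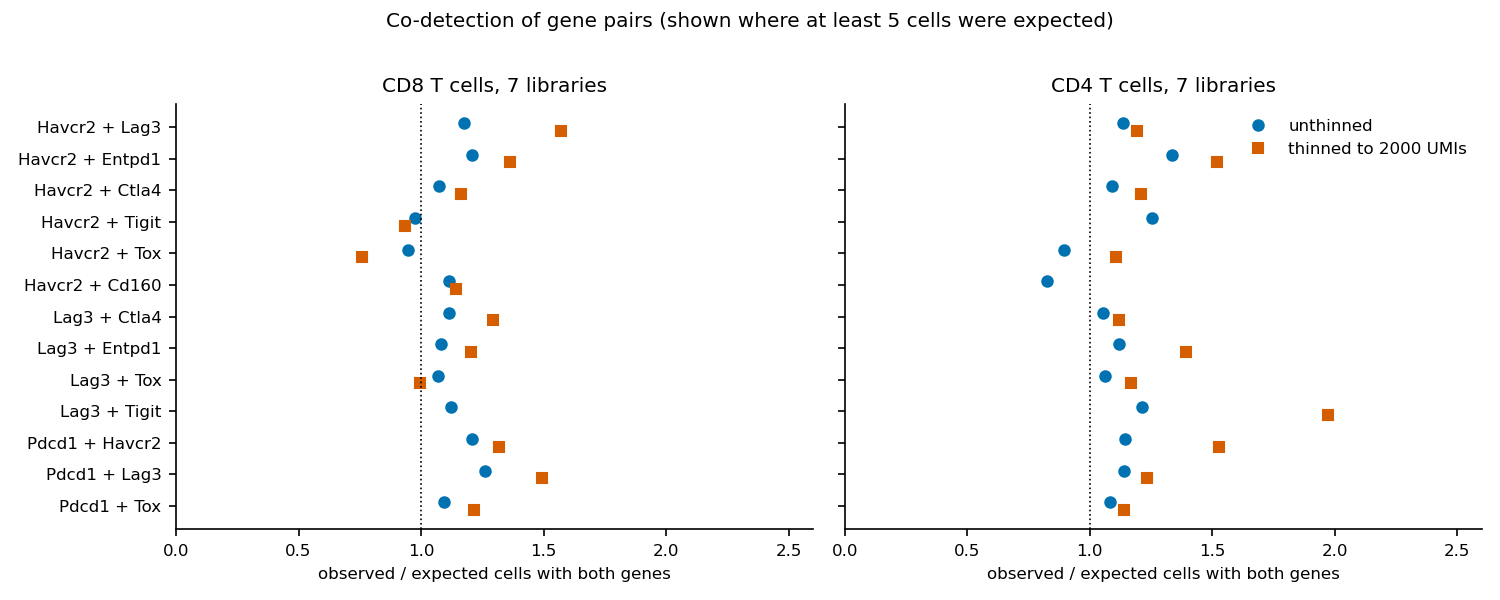
Observed over expected number of cells with both genes of a pair, in CD8 T (left) and CD4 T cells (right), with all UMIs (circles) and after thinning to 2000 UMIs (squares), where at least 5 cells were expected. In CD8 T cells Havcr2 with Lag3 rose from 1.18 to 1.57 on thinning and Havcr2 with Tox fell from 0.946 to 0.757.

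Across 31 profiles of the 6 classes, each from 1 library, the genes most like each member in log2(CPM + 10) were read among 6695 genes. They were Rhbdf2 (r = 0.79), Bcl2a1b and Etf1 for Havcr2, Cdca7 (0.78), Snrnp70 and Pdcd1 for Lag3, Dnah8 (0.89), Camk4 and Zap70 for Tigit, and Gstp3 (0.96), Bcl11b and Icos for Ctla4. For Entpd1 they were Med12l (0.81), Batf3 and Cacnb2, for Tox Gimap8 (0.97), Rnf125 and Skap1, for Cd160 Klrc2 (0.91), Klrd1 and Cd226, and for Lgals9 Itm2b (0.84), Capza2 and Laptm4a. The profiles share libraries and fall into lymphoid and myeloid sets, so the values of r describe these profiles only.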

How the data were processed

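The 7 libraries of the NSCG model were analysed from the raw UMI counts deposited by the authors, as gene by barcode matrices that still hold empty droplets (10 to 100 UMIs were used for free RNA), aligned to mm10 per the submitters' processing notes. The submitters' processing notes name Cell Ranger 7.0.1, whereas the file headers name version 4. Kept were 51795 barcodes (at least 1000 UMIs and 500 genes, mitochondrial share up to 15%), of which 3207 were removed as doublets called by Scrublet. Cells were clustered with scanpy 1.11.5 (2000 variable genes without the 8 members, 30 components, 15 neighbours, Leiden resolution 1, no batch correction), and clusters were named from marker lists. CD8 T, CD4 T, Foxp3 T and NK cells were gated by UMIs of their markers within T-like and NK-like clusters. Counts were summed per library and class (at least 20 cells) and tested with edgeR 4.0.16 (quasi-likelihood, TMM scaling, filterByExpr, Benjamini-Hochberg over all genes, threshold 0.05); SEs are the log2 difference divided by the root of F. Class contrasts had the library as a block. A count of 0 was given a limit of 3 counts over the IgG group. With 2 libraries against 2, an exact permutation test cannot go below 0.333, so none was used. Genes named are the 8 members, the called genes of 5 related lists and the 3 genes most like each member. Where over 4 genes of a list were called, the 4 with the largest difference are named. Prf1, Gzma, Gzmb, Ncr1 and Klrb1c were chosen after their values were seen. Members and lists were chosen with earlier results of these data known. The tests were checked on simulated counts. Alternatives covered DESeq2 1.42.0, scaling, filters, left-out libraries, a replicate block, thinning, free RNA and cells with macrophage UMIs. Same-numbered libraries did not deviate together (correlations -0.04, -0.24 and 0.04 in T-like, monocyte/macrophage-like and microglia-like cells). At -0.24, IgG 1 leaned with BP 2 and IgG 2 with BP 1 in monocyte/macrophage-like cells, and the main group test had no block for this.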

Additional observations from a re-analysis of the deposited data

How the results depend on the processing

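Of 398 alternative values for the 24 calls of single members, 332 kept the call, 65 lost it and 1 reversed (Lag3 in T-like cells of BP with UT pooled into the control, -0.80). Counts of members called in T-like cells of BP (3) were 0 with DESeq2, with UT pooled and with doublets kept, 1 with upper-quartile scaling, the replicate block or cells with UMIs of 6 macrophage genes left out (chosen after seeing the data), and 0 to 4 with a library left out. Calls over all genes fell too, from 65 to 5 with DESeq2, 0 with UT pooled, 2 with doublets kept, 13 with upper-quartile scaling, 22 with the replicate block and 8 without those cells, and were 1 to 239 with a library left out. In BPI (1) they were 0 with DESeq2 or UT pooled, 2 without a filter, and 0 to 2 with a library left out (of all genes 45, 12, 3, 70 and 1 to 116). With a library left out the counts also changed in CD40, BPI against BP and UT, for members and for all genes. In monocyte/macrophage-like cells the count was 1 for BPI without a filter, and it changed for BP and BPI with a library left out. In microglia-like cells of UT it was 1 with DESeq2 (of all genes 103) or without a filter, and it changed with a library left out. Calls over all genes changed too with a library left out, as given above without BP 2. No counts over all genes are given for the fits without a filter in these 2 classes. The replicate block changed no count besides that of BP and UT (2) in T-like cells, and calls over all genes in UT fell from 182 to 52. Crossed numbers, added after seeing the data, gave 2 in T-like cells of BPI and 1 each in monocyte/macrophage-like cells of BPI, CD40 and UT. No counts over all genes stand beside the crossed numbers, so these say nothing particular about the members. Foxp3 T against CD4 T (2) gave 1 with DESeq2, free RNA subtracted or cells with macrophage UMIs left out, and 0 to 3 with a library left out (of all genes 349, 181, 195, 70 and 47 to 398). CD8 T against CD4 T (4) gave 2 with DESeq2 and 2 to 5 with a library left out (of all genes 722, 380 and 125 to 729). Foxp3 T against CD8 T (4) gave 3 with DESeq2 (of all genes 820 and 595), and its counts without BP 1 are given above. NK against CD8 T (5) gave 3 without cells with macrophage UMIs, a list that holds Tyrobp of NK cells. Of all genes, 1941 and 495 were called in that contrast. With free RNA subtracted, median levels were 1427 CPM for Ctla4 in Foxp3 T cells and 166.1 for Havcr2 and 261.4 for Lgals9 in microglia-like cells. Co-detection ratios were 1.46 (thinned to 1000) and 1.57 (2000) for Havcr2 and Lag3 in CD8 T cells. At 2000 UMIs they were 1.52 for Havcr2 and Entpd1 in CD4 T cells, and 1.106 and 1.114 for Havcr2 and Tox in CD4 T and Foxp3 T cells. Havcr2 and Tox in Foxp3 T cells gave 0.829 without cells with macrophage UMIs, and Lag3 and Ctla4 there 0.868 at 1000 UMIs. The causes were not tested. Few T cells in IgG limit the depth behind the contrasts of T cells with it.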

Other observations

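Lag3 was also seen in plasmacytoid dendritic-like cells, in 103 of 305 cells (33.8%). Its level there was 255 CPM in UT (exact 95% Poisson interval 202 to 317, 35 cells), 54.4 in BP 1 (44.4 to 66.0, 203 cells), 61.4 in BP 2, 40.5 in BPI, 12.8 in CD40 and 21.4 in IgG 1, the last 2 from 1 UMI each. UT was thus the highest library for Lag3 in these cells, as in T-like, CD8 T, CD4 T, microglia-like and tumour-like cells. Entpd1 was seen in 30 of 63 neutrophil-like cells (47.6%), at 609 CPM over all libraries (476 to 766), of which BP 1 gave 49 of 72 UMIs.

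Lgals9 was at 394 and 153 CPM in the endothelial and mural-like cells of IgG, 226 and 223 in BP, 544 in BPI, 114 in CD40 and 468 in UT. In tumour-like cells it was at 29.4 and 10.8 CPM in IgG, 61.9 and 31.7 in BP, 49.3 in BPI, 10.2 in CD40 and 156 in UT. CD40 was the lowest library in both classes, and no test was made. The tumour-like cells of the libraries lay mostly in different clusters, those of UT with 948 of 1082 in 1 cluster.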
